A study of Homo sapiens with 8 samples.

Results

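A set of 10 genes that mark or maintain the epithelial state were followed in SKOV3, a long-established ovarian cancer line of human origin, across clones with and without PDE10A. They are the surface molecules EPCAM, CD24 and CDH1 (E-cadherin), the splicing regulators ESRP1 and ESRP2, the transcription factors GRHL2, OVOL1 and ELF3, the membrane protease gene ST14 and TRIM29. They were chosen by name, with earlier results of these data known. All 10 of 10 matched a row among the 67008 genes of the count table. Each of 4 untreated lines was sequenced as 2 libraries, which the labels call replicates taken at different passages. The lines were KO 5H5 and KO 2F4, each a single clone in which PDE10A was knocked out, EV 1B9, a single clone with an empty vector, and the parental culture. That leaves 2 clones on the knockout side and 1 clone beside an uncloned culture on the control side. The PDE10A enzyme breaks down the second messengers cAMP and cGMP, and the study asked, by its title, whether targeting it lowers beta-catenin and RAS signalling.

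Epithelial cells hold together through E-cadherin, whose cytoplasmic tail binds beta-catenin and related catenins. GRHL2 and OVOL1 sustain this state, GRHL2 by activating E-cadherin and other junction genes and OVOL1 by repressing factors such as ZEB1 that drive the epithelial-mesenchymal transition. ESRP1 and ESRP2 keep epithelial splice forms of transcripts such as FGFR2 and CD44. Carcinoma cell lines, ovarian ones included, can carry a mixture of epithelial and mesenchymal traits.

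Each library held 15483683 (parental 1) to 28648044 (EV 1B9 1) counts in genes. Levels below are CPM, counts scaled to the library's total in genes with TMM factors, and a line's mean ± SD is over n = 2 libraries. PDE10A itself had 4 and 12 counts in KO 5H5, 4 and 31 in KO 2F4, against 183 and 220 in EV 1B9 and 120 and 55 in parental. All 4 knockout libraries lay below all 4 control libraries, but KO 2F4 2, at 2.25 CPM, was close to parental 2 at 2.54 CPM. The log2 fold change of -3.07 did not pass (SE 0.84, adjusted p 0.0988, edgeR's quasi-likelihood test). By line, PDE10A was called lower in KO 5H5 against EV 1B9 (-4.32, adjusted p 0.0351, edgeR). KO 5H5 against parental (-4.06, adjusted p 0.145) and KO 2F4 against EV 1B9 (-2.52, adjusted p 0.101) and against parental (-2.26, adjusted p 0.32) did not pass. Of the ovarian carcinoma markers checked, PAX8 was present in all libraries (226 to 505 CPM) and so were KRT8, KRT18, KRT19 and ERBB2, while WT1 (0.0806 to 3.75 CPM) and MUC16 (0.297 to 9.99 CPM) were low. The haematopoietic markers CD3E and LYZ were at 0 in all 8 libraries, and the summed haematopoietic list of 4 genes reached 0 to 0.629 CPM in knockout and 0.0806 to 1.13 CPM in control libraries. Endothelial markers summed to 0.582 to 2.11 CPM in knockout and 0.513 to 5.1 CPM in control libraries. The 6 fibroblast markers summed to 6.37 to 2004 CPM in knockout and 23.7 to 137 CPM in control libraries. Most of that sum was COL1A1, except in KO 2F4 1, where PDGFRB was higher (3.14 CPM, beside 2.5 for COL1A1). COL1A1 had 913 and 1986 CPM in KO 5H5, 2.5 and 34 in KO 2F4, against 22.8 and 120 CPM in EV 1B9 and 126 and 124 CPM in parental. PDGFRB did not overlap between the classes, at 3.14 to 17.7 CPM in knockout and 0.027 to 2.4 CPM in control libraries. The 4 mesothelial markers summed to 47.7 to 109 CPM in knockout and 59.9 to 112 CPM in control libraries, with CALB2 at 0. The part of these lists in the results below was not tested. In bulk RNA, fewer cells that express a gene and less RNA per cell cannot be told apart.

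The 10 genes covered a wide span of levels. Per length of exons, CD24 was the most abundant in every line, at 88.5 RPKM (CPM per kilobase of exon) in KO 5H5, 9.11 in KO 2F4, 60.9 in EV 1B9 and 32.3 in parental, which placed it between the 83.7 and 96.9 percentile of protein-coding genes. ELF3 lay at 1.32 to 3.32 RPKM in the 4 lines. ESRP2 was at a similar level of 2.11 to 2.88 RPKM in 3 lines but at 0.15 RPKM in EV 1B9. EPCAM ranged from 0.184 RPKM in KO 2F4 to 3.19 RPKM in EV 1B9, and TRIM29 from 0.0716 to 4.88 RPKM in the same pair of lines. E-cadherin mRNA did not exceed 0.765 RPKM (KO 5H5) and ST14 did not exceed 0.303 RPKM (KO 2F4). ESRP1 and GRHL2 were at or near 0 outside the parental line, and OVOL1 in every line.

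**Figure D1:**
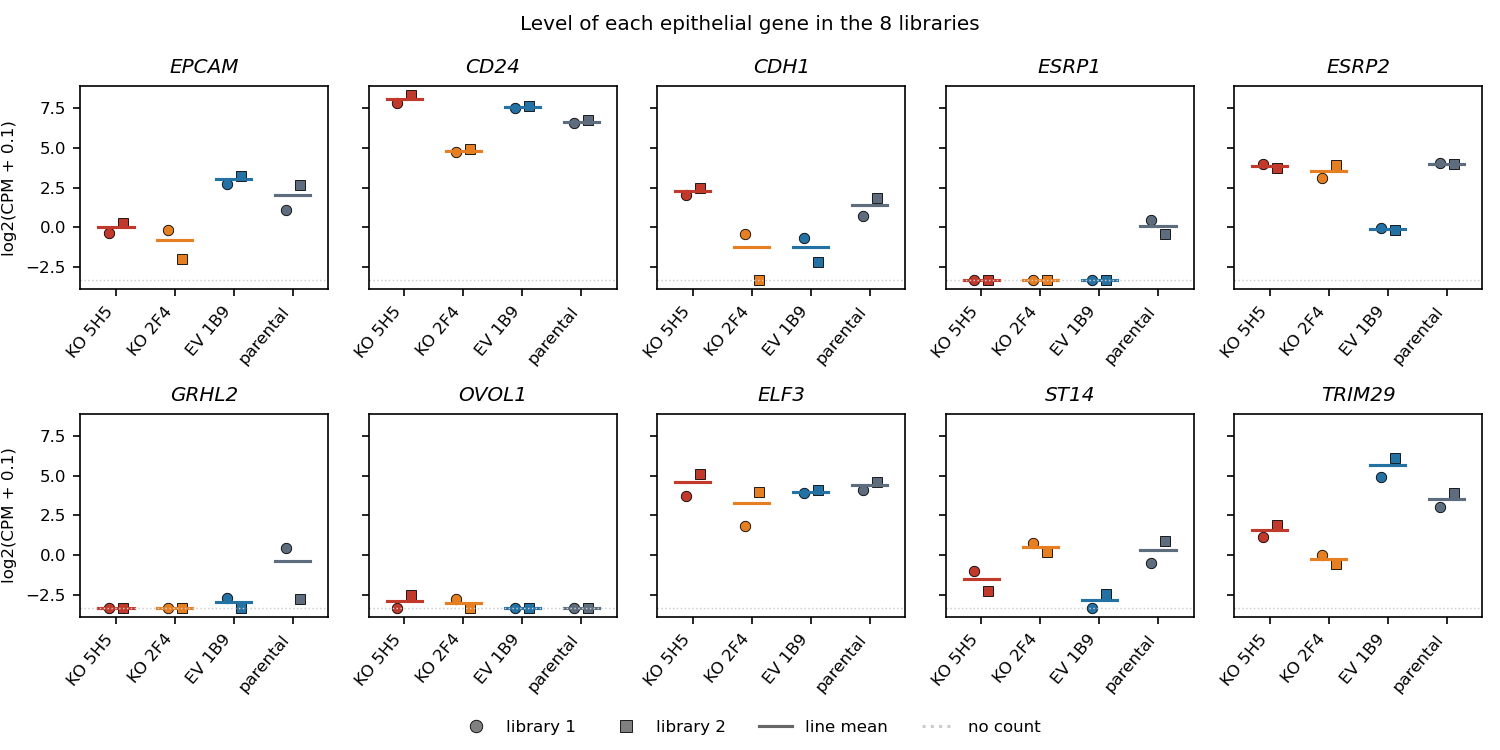
Level of each of the 10 genes as log2(CPM + 0.1) in KO 5H5 and KO 2F4 (knockout clones), the empty vector clone EV 1B9 and the parental line; circles and squares are the 2 libraries of a line, horizontal bars the line means, and the dotted line marks no count. EPCAM and TRIM29 are lower in all 4 knockout libraries, CD24 is lowest in KO 2F4, ESRP2 is low in EV 1B9 alone, and ESRP1 has counts in the parental line alone.

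The first comparison set the 4 knockout libraries against the 4 control libraries and asked which of the genes differ with loss of PDE10A. Of the 10 genes, 7 passed the filter on low counts, and ESRP1, GRHL2 and OVOL1 did not. EPCAM and TRIM29 were lower in the knockout libraries, and none of the others passed. For these 2 genes no knockout library overlapped a control library. Across all 13508 genes tested, 1.42% were called, 1.13% lower and 0.296% higher, and 10.3% had no overlap between the classes, 5.62% with the knockout lower and 4.68% with it higher. The calls were 40 higher and 152 lower, and 239 higher and 295 lower with offsets for GC content and length, which moved the median of all genes to 0.04, against -0.14 without them; EPCAM and TRIM29 were called lower in both.

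EPCAM (ENSG00000119888.10, chromosome 2, 47345158 to 47387601, plus strand, GRCh38) encodes a transmembrane adhesion molecule of simple epithelia that is widely used to identify carcinoma cells. It had 0.686 and 1.13 CPM in KO 5H5, 0.784 and 0.145 in KO 2F4, against 6.58 and 9.47 CPM in EV 1B9 and 2.03 and 6.1 CPM in parental. All knockout libraries were lower than all controls, and the nearest pair was KO 5H5 2 and parental 1. The level averaged 0.687 ± 0.408 CPM in knockout and 6.04 ± 3.07 CPM in control libraries (SD, n = 4 each). On the log2 scale EPCAM fell by 3.16 (SE 0.69; edgeR, adjusted p 0.041). The call was lost without any one library of KO 5H5, KO 2F4 or EV 1B9 and without parental 2 (adjusted p 0.0589 to 0.138, edgeR). It was also lost with parental as the only control (-2.58, adjusted p 0.352, edgeR) and with the counts of each line summed into 1 sample (-3.03, adjusted p 0.321), and limma-voom with a line block gave an adjusted p of 0.248. Between single lines, KO 2F4 was lower than EV 1B9 (log2 fold change -4.04, SE 0.91, adjusted p 0.0131, edgeR). KO 5H5 against EV 1B9 gave -3.12 (SE 0.86, adjusted p 0.0565), and against parental the clones gave -2.15 (KO 5H5, adjusted p 0.435) and -3.07 (KO 2F4, adjusted p 0.122), none of which passed in edgeR. KO 5H5 against EV 1B9 was called under RLE size factors (adjusted p 0.0488), with no filter (0.0106), with GC and length offsets (0.0263) and by DESeq2 (0.00426). KO 2F4 against parental was called with no filter (adjusted p 0.0439, edgeR) and by DESeq2 (0.0225). In order of level the lines were EV 1B9 (8.03 ± 2.04 CPM), parental (4.06 ± 2.88), KO 5H5 (0.908 ± 0.315) and KO 2F4 (0.465 ± 0.452), and no neighbouring pair in that order differed beyond the spread by edgeR (adjusted p 0.477, 0.435 and 0.762).

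TRIM29 (ENSG00000137699.17, chromosome 11, 120111275 to 120185529, minus strand), a tripartite motif protein found in basal and squamous epithelia, followed the same order with a wider span. It had 2.11 and 3.54 CPM in KO 5H5, 0.882 and 0.582 in KO 2F4, against 29.6 and 70 CPM in EV 1B9 and 7.88 and 14.9 CPM in parental. Every knockout library was below every control library. The means were 1.78 ± 1.35 CPM in knockout and 30.6 ± 27.8 CPM in control libraries (SD, n = 4 each) and EV 1B9 lay above parental. On the log2 scale TRIM29 fell by 4.14 (SE 0.75, adjusted p 0.0178, edgeR). The call was lost without KO 5H5 1 (adjusted p 0.0737), without KO 2F4 1 (0.0726), without EV 1B9 2 (0.0516), with parental as the only control (-2.71, adjusted p 0.17) and with counts summed per line (-3.93, adjusted p 0.256, edgeR), and limma-voom with a line block gave an adjusted p of 0.122. TRIM29 was also lower in KO 5H5 than in EV 1B9 (-4.13, SE 0.60, adjusted p 0.00101, edgeR). In KO 2F4 it was lower than in EV 1B9 (-6.06, SE 0.68, adjusted p 9.48e-05, edgeR) and than in parental (-3.94, SE 0.63, adjusted p 0.00689, edgeR). KO 5H5 against parental did not pass (-2.01, SE 0.56, adjusted p 0.18), nor did EV 1B9 against parental (2.12, SE 0.55, adjusted p 0.0763) or KO 2F4 against KO 5H5 (-1.93, SE 0.61, adjusted p 0.258). TRIM29 in EV 1B9 was called higher than in parental with no filter, with GC and length offsets and by DESeq2, but not under RLE size factors. In KO 5H5 it was called lower than in parental with no filter and by DESeq2.

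CD24 (ENSG00000272398.6, chromosome 6, 106969831 to 106975627, minus strand) encodes a short, heavily glycosylated protein held in the membrane by a lipid anchor, a marker of many carcinomas and a ligand of P-selectin. The 2 knockout clones lay at opposite ends of its range. KO 5H5 had 230 and 318 CPM and KO 2F4 had 26.6 and 29.9 CPM, against 182 and 196 CPM in EV 1B9 and 93 and 107 CPM in parental. The libraries of each line lay close together, and no line overlapped another. With the clones taken as 1 class, knockout libraries averaged 151 ± 146 CPM and control libraries 144 ± 51.9 CPM (SD, n = 4 each), with a log2 difference of 0.00 (SE 0.67, adjusted p 0.998, edgeR). The difference between the clones was tested directly: KO 2F4 was lower than KO 5H5 by a log2 difference of -3.28 (SE 0.43, adjusted p 0.0044, edgeR), where 0.392% of 15551 genes were called. CD24 in KO 2F4 was also lower than in EV 1B9 (-2.74, SE 0.42, adjusted p 0.0012, edgeR) and than in parental (-1.83, SE 0.41, adjusted p 0.041, edgeR). The last call was lost under RLE size factors (adjusted p 0.0546) and without KO 2F4 2, parental 1 or parental 2 (adjusted p 0.0552 to 0.0992). KO 5H5 did not pass against either control (0.54, SE 0.39, adjusted p 0.516 against EV 1B9 and 1.45, SE 0.40, adjusted p 0.17 against parental, edgeR). CD24 has pseudogenes of close sequence, and reads that fit several places were set aside uncounted, 10.3% to 25.1% of all reads per library. The share of CD24 reads among them is not known, and of the 4 CD24 pseudogenes counted, 3 had 0 counts in all libraries and the other had 0 to 5 counts per library.

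Promoter sequence from RefSeq (GRCh38.p14) was read for 2 of the 10 genes, CD24 and ELF3. The promoters of the other genes, ESRP1 and GRHL2 among them, were not read. Both are shown as the 250 bases before a gene start in RefSeq, 5′ to 3′ on the gene's strand, because CD24 carries the difference between the clones and ELF3 is a factor of the ETS family. RefSeq gives CD24 3 starts, and the window shown is that of the outermost one. The RefSeq start of ELF3 lies inside the gene as GENCODE 29 places it, so its window is not upstream of the GENCODE gene. Capitals mark the ETS core GGAA and the E-box CANNTG, the general form of the sites bound by SNAI and ZEB factors, on either strand.
CD24, chr6:106975628-106975877, minus strand: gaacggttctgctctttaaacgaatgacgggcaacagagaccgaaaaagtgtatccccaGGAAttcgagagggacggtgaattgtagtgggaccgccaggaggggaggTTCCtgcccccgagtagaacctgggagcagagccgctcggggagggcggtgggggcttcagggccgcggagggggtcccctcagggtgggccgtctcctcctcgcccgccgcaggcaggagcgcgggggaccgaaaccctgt
ELF3, chr1:202010337-202010586, plus strand: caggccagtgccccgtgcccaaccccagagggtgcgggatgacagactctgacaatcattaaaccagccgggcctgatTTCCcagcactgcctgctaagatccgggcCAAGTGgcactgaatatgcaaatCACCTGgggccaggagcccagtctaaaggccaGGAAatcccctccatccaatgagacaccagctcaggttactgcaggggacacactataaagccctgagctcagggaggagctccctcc
The CD24 window held 2 ETS cores, starting 191 and 142 bases before the gene start, and 0 E-boxes. At the other CD24 starts, the window before 106975465 held 1 ETS core and 0 E-boxes, and the one before 106974039 held 3 ETS cores and 1 E-box of the form CAGGTG, 249 bases before that start. The ELF3 window held 2 ETS cores and 2 E-boxes, of which the one 120 bases before the start has the form CAGGTG on the other strand, a subset of the general E-box. Of 35116 RefSeq promoters of this length, 92.7% hold GGAA, 61.8% hold CANNTG and 17.5% hold CAGGTG. The TCF core CTTTGA, present in 11.2%, and the grainyhead motif AACCNGTT, present in 1.49%, had 0 matches in any of these windows. These matches describe letters only.

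CDH1 (ENSG00000039068.19, chromosome 16, 68737225 to 68835548, plus strand) encodes E-cadherin. It had 71 and 148 counts in KO 5H5, 13 and 0 in KO 2F4, against 19 and 3 in EV 1B9 and 20 and 76 in parental. In CPM the lines were KO 5H5 at 4.73 ± 0.948, KO 2F4 at 0.319 ± 0.45, EV 1B9 at 0.317 ± 0.277 and parental at 2.51 ± 1.42. One clone with the knockout and the uncloned control were thus at the higher levels, and the other clone and the empty vector clone at the lower ones. Knockout against control gave a log2 difference of 0.82 (SE 1.16, adjusted p 0.773, edgeR). KO 5H5 was at 3.84 over EV 1B9 (SE 1.21, adjusted p 0.0993, edgeR) and 0.91 over parental (SE 1.08, adjusted p 0.851). KO 2F4 against KO 5H5 gave -3.79 (SE 1.23, adjusted p 0.276, edgeR), and no comparison between lines passed in edgeR with all libraries and the filter. KO 5H5 against EV 1B9 was called with no filter (adjusted p 0.0343, edgeR) and by DESeq2 (0.013). It was also called without either KO 2F4 library, without EV 1B9 1 and without either parental library (adjusted p 0.000345 to 0.046, edgeR). KO 2F4 against KO 5H5 moved between -9.69 and -2.89 with libraries left out. The low end came without KO 2F4 1, which leaves KO 2F4 with a library at 0, and there CDH1 was called (adjusted p 0.000676, edgeR), as was KO 2F4 against parental (-8.75, adjusted p 0.00294). KO 2F4 against KO 5H5 was also called without either EV 1B9 library or without parental 2 (adjusted p 0.0231 to 0.0366), and EV 1B9 against parental without either KO 2F4 library (adjusted p 0.0174 and 0.0115, edgeR). Pooled over its libraries, KO 2F4 held 13 counts, a level of 0.381 CPM with an exact Poisson 95% interval of 0.203 to 0.651 that covers counting error alone, and EV 1B9 held 22 counts, 0.356 CPM (0.223 to 0.539).

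Partners of E-cadherin and other classical cadherins formed a list of 9 genes, 7 of them tested. In knockout against control 0 were called by edgeR (1 at an unadjusted p under 0.05) and 0 by DESeq2 and by limma-voom. Over the whole table DESeq2 called more genes than edgeR in this comparison, and limma-voom called fewer. The share of all genes at an unadjusted p under 0.05 is not given. For this list and those below, such counts are therefore not read as an excess. The list median was -0.21 on the log2 scale, beside -0.14 over all genes. CTNNB1, which encodes beta-catenin, averaged 67.2 CPM in knockout and 51.2 CPM in control libraries (log2 fold change 0.33, SE 0.42, adjusted p 0.743, edgeR). The cadherin CDH6, found in kidney and ovarian carcinoma, had 2.46 and 8.43 CPM in KO 5H5, 0 and 0.945 in KO 2F4, against 20.8 and 33.1 CPM in EV 1B9 and 11.6 and 24.5 CPM in parental. It did not pass in knockout against control (-2.96, SE 0.96, adjusted p 0.159, edgeR), although the classes did not overlap. In KO 2F4 it was lower than in EV 1B9 (-5.96, SE 1.07, adjusted p 0.00364, edgeR) and than in parental (-5.38, SE 1.05, adjusted p 0.0209, edgeR). N-cadherin, encoded by CDH2, averaged 37.2 ± 18 CPM in knockout and 22.2 ± 7.7 CPM in control libraries (0.70, SE 0.41, adjusted p 0.45), and P-cadherin, encoded by CDH3, had 0 to 1.09 CPM.

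Of the epithelial splicing regulators, ESRP2 stood apart in EV 1B9 and ESRP1 in parental. ESRP2 (ENSG00000103067.14, chromosome 16, 68229111 to 68238102, minus strand) had 15.6 and 13.2 CPM in KO 5H5, 8.33 and 15.1 in KO 2F4, against 0.864 and 0.806 CPM in EV 1B9 and 16.3 and 15.8 CPM in parental. EV 1B9 was below all other libraries, and the remaining 3 lines overlapped or nearly met. ESRP2 was higher in KO 5H5 than in EV 1B9 (log2 fold change 4.09, SE 0.55, adjusted p 0.000566, edgeR) and in KO 2F4 than in EV 1B9 (3.80, SE 0.55, adjusted p 0.000776, edgeR). It was lower in EV 1B9 than in parental (-4.26, SE 0.56, adjusted p 0.000887, edgeR). Against parental the clones gave -0.16 (KO 5H5, SE 0.48, adjusted p 0.953) and -0.46 (KO 2F4, SE 0.48, adjusted p 0.76), and knockout against control gave 0.62 (SE 0.81, adjusted p 0.748, edgeR). The direction of the last value turned with parental as the only control (-0.34, adjusted p 0.884), and with EV 1B9 as the only control it was 3.97 (adjusted p 0.00244, edgeR), and a contrast of line means gave 1.82 (adjusted p 0.00643). ESRP2 overlaps NFATC3 on the other strand, which had 3.56 to 10.7 CPM, and the sources used here do not say whether counting used strand.

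ESRP1 (ENSG00000104413.18, chromosome 8, 94641074 to 94707466, plus strand) had no count in KO 5H5, KO 2F4 or EV 1B9, against 17 and 14 counts in parental, or 1.28 and 0.647 CPM. Taking 3 counts per line (its libraries together) as the floor, ESRP1 was at least 13.3-fold lower in KO 5H5, 10.1-fold in KO 2F4 and 18.3-fold in EV 1B9 than in parental. In edgeR the fits against parental did not pass (adjusted p 0.521 for KO 5H5, 0.349 for KO 2F4 and 0.193 for EV 1B9), and the gene passed the filter through the parental line alone. All 3 single clones were at 0, the one without the knockout included.

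Counts per gene do not show splice forms, so the targets of these regulators were read as totals. Of 10 further splicing regulators and ESRP target transcripts, 9 were tested in knockout against control. By edgeR 0 were called (1 at an unadjusted p under 0.05), by limma-voom 0 and by DESeq2 1, EXOC7, and the list median was -0.56. EXOC7, an exocyst subunit, had the lowest p, at 198 and 165 CPM in KO 5H5, 357 and 263 in KO 2F4, against 68.4 and 145 CPM in EV 1B9 and 50.9 and 99.5 CPM in parental (log2 fold change 1.40, SE 0.39, adjusted p 0.103, edgeR). RBM47, an RNA-binding protein, was at -0.90 (SE 0.50, adjusted p 0.418) and the splicing regulator QKI at -0.67 (SE 0.54, adjusted p 0.581). The fibroblast growth factor receptor gene FGFR2, outside the naming rule and chosen after its values were seen, differed in direction between the clones. It had 10.1 and 18.5 CPM in KO 5H5, 0.049 and 0.218 in KO 2F4, against 1.16 and 0.887 CPM in EV 1B9 and 3.23 and 7.02 CPM in parental. FGFR2 was higher in KO 5H5 than in EV 1B9 (3.80, SE 0.72, adjusted p 0.00727, edgeR), lower in KO 2F4 than in EV 1B9 (-3.01, SE 0.87, adjusted p 0.0374, edgeR), and lower in KO 2F4 than in KO 5H5 (-6.81, SE 0.91, adjusted p 0.00486, edgeR). The call against EV 1B9 in KO 2F4 was lost without KO 2F4 1 or EV 1B9 1. Against parental, KO 2F4 was called lower (-5.33, SE 0.88, adjusted p 0.00838, edgeR) and KO 5H5 did not pass (1.48, adjusted p 0.539).

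Of the 3 transcription factors, ELF3 alone passed the filter on low counts. ELF3 (ENSG00000163435.16, chromosome 1, 202007945 to 202017188, plus strand), an epithelium-specific ETS factor, had 13 and 34.7 CPM in KO 5H5, 3.43 and 15.6 in KO 2F4, against 14.6 and 16.8 CPM in EV 1B9 and 17.3 and 24.6 CPM in parental. The libraries of each knockout clone lay far apart, and the classes overlapped. The means were 16.7 ± 13.1 CPM in knockout and 18.3 ± 4.37 CPM in control libraries (SD, n = 4 each; log2 fold change -0.17, SE 0.54, adjusted p 0.908, edgeR), and 0 of the 6 comparisons of single lines passed. The value in KO 2F4 rested on one library: without KO 2F4 2, ELF3 was at -2.21 against EV 1B9 (adjusted p 0.0175, edgeR) and at -2.60 against parental (adjusted p 0.0108), while all libraries gave -0.73 (adjusted p 0.456) and -1.15 (adjusted p 0.468). Its antisense partner ELF3-AS1 had 0 to 2.24 CPM.

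GRHL2 (ENSG00000083307.12, chromosome 8, 101492432 to 101669726, plus strand), a grainyhead factor, had 0 counts in all 4 knockout libraries, against 2 and 0 in EV 1B9 and 17 and 1 in parental. Nearly all its counts thus came from 1 library, parental 1, in which 10.0% of all counted reads fell outside annotated features, against 1.48% to 5.51% in the others. The part of such reads in the GRHL2 counts was not tested. Pooled over the line, parental held 18 counts, a level of 0.515 CPM. On the floor of 3 counts per line, the knockout clones were at least 7.7-fold (KO 5H5) and 5.86-fold (KO 2F4) lower. The clone without the knockout was low too: parental over EV 1B9 gave a ratio of 15.9, with a 95% counting interval of 3.81 to 141. All these folds rest on parental 1, since parental 2 held 1 count. OVOL1 (ENSG00000172818.10, chromosome 11, 65787022 to 65797219, plus strand), a zinc finger repressor, had 0 and 2 counts in KO 5H5, 1 and 0 in KO 2F4, against no count in any control library. That is at or under the floor in every line, so no fold is given.

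A list of 15 other epithelial transcription factors had 7 tested in knockout against control. By edgeR 0 were called (2 at an unadjusted p under 0.05), by limma-voom 0 and by DESeq2 1, KLF5, and the list median was -0.84 on the log2 scale beside -0.14 over all genes. KLF5, a Krüppel-like factor of proliferating epithelia, had 18.7 and 18.9 CPM in KO 5H5, 11.6 and 8.29 in KO 2F4, against 59.2 and 75.8 CPM in EV 1B9 and 29.2 and 19.7 CPM in parental (log2 fold change -1.74, SE 0.47, adjusted p 0.0956, edgeR). Its classes did not overlap, and against EV 1B9 it was called lower in KO 5H5 (-1.84, SE 0.43, adjusted p 0.0245, edgeR) and in KO 2F4 (-2.76, SE 0.44, adjusted p 0.00171). The KO 5H5 call was lost without either KO 5H5 library and without EV 1B9 2. Against parental neither clone passed (-0.38, adjusted p 0.831 for KO 5H5 and -1.30, adjusted p 0.179 for KO 2F4, edgeR), and EV 1B9 was itself at 1.46 over parental (adjusted p 0.0971). TFAP2A averaged 40.9 ± 14.7 CPM in knockout and 70.5 ± 8.14 CPM in control libraries (-0.83, SE 0.34, adjusted p 0.279, edgeR). OVOL2, the paralog of OVOL1, was near 0 in one clone, with 5.94 and 3.25 CPM in KO 5H5, 0.098 and 0 in KO 2F4, against 8.34 and 5.16 CPM in EV 1B9 and 11.3 and 9.19 CPM in parental. It was lower in KO 2F4 than in KO 5H5 (-6.20, SE 0.93, adjusted p 0.0116, edgeR), EV 1B9 (-6.76, adjusted p 0.000557) and parental (-7.36, adjusted p 0.00117). GRHL1 had 0 to 12 counts per library and GRHL3 had 1 to 5 counts in knockout and 0 in control libraries. EHF, not tested in knockout against control, had 5 counts over the knockout and 211 over the control libraries. Its classes did not overlap, at 0 to 0.218 CPM in knockout and 0.525 to 3.51 CPM in control libraries. Most control counts were in EV 1B9, at 102 and 87. With no filter EHF was called lower in knockout against control by edgeR.

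Factors that promote the epithelial-mesenchymal transition were read beside them. Of 9 such genes 4 were tested in knockout against control. By edgeR, DESeq2 and limma-voom 0 were called, with 0 at an unadjusted p under 0.05 in edgeR and a list median of 0.22. SNAI2 had 17.2 ± 7.73 CPM in knockout and 10.5 ± 3.31 CPM in control libraries (0.67, SE 0.43, adjusted p 0.486, edgeR). SNAI1 had 7.52 ± 3.25 CPM in knockout and 4.49 ± 3.85 CPM in control libraries (0.75, SE 0.64, adjusted p 0.606). By line it had 5.79 ± 1.15 CPM in KO 5H5, 9.26 ± 4.29 in KO 2F4, against 1.37 ± 0.119 CPM in EV 1B9 and 7.61 ± 2.38 CPM in parental, so EV 1B9 was the low line. SNAI1 was higher in KO 2F4 than in EV 1B9 (2.74, SE 0.61, adjusted p 0.0123, edgeR), while KO 2F4 against parental did not pass (0.28, adjusted p 0.897), nor did EV 1B9 against parental (-2.47, adjusted p 0.0656). TWIST1 differed by -0.23 (SE 0.42, adjusted p 0.826). ZEB1 averaged 3.53 CPM in knockout and 4.03 CPM in control libraries (-0.24, SE 0.58, adjusted p 0.876).

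ST14 (ENSG00000149418.11, chromosome 11, 130159562 to 130210376, plus strand) encodes matriptase, a serine protease of epithelial membranes that is held in check by the inhibitors SPINT1 and SPINT2. It had 7 and 3 counts in KO 5H5, 33 and 14 in KO 2F4, against 0 and 2 in EV 1B9 and 8 and 37 in parental. KO 2F4 and parental held most of the counts. KO 2F4 against KO 5H5 did not pass (log2 difference 2.38, SE 1.57, adjusted p 0.622, edgeR). Over 2 counts in EV 1B9, the ratio of pooled levels was 42.6 for KO 2F4 with a 95% counting interval of 11.1 to 362, and 6.89 for KO 5H5 with an interval of 1.47 to 64.6. In edgeR neither passed (adjusted p 0.0836 for KO 2F4 and 0.475 for KO 5H5), and knockout against control gave a log2 difference of 0.42 (SE 1.25, adjusted p 0.901). EV 1B9 against parental gave -4.80 and did not pass (SE 1.81, adjusted p 0.165, edgeR). DESeq2 called ST14 lower in EV 1B9 than in parental and higher in KO 2F4 than in EV 1B9.

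The 6 genes listed with matriptase gave 0 calls among 5 tested in knockout against control, with 1 at an unadjusted p under 0.05 in edgeR, 0 calls by DESeq2 and limma-voom, and a median of -0.09. SPINT2 had 163 and 148 CPM in KO 5H5, 30.3 and 43.2 in KO 2F4, against 254 and 203 CPM in EV 1B9 and 126 and 134 CPM in parental. It was lower in KO 2F4 than in KO 5H5 (-2.08, SE 0.41, adjusted p 0.0472, edgeR), EV 1B9 (-2.63, SE 0.42, adjusted p 0.00165) and parental (-1.82, SE 0.41, adjusted p 0.0433). Under RLE size factors the calls against KO 5H5 and parental were lost. The first was also lost without KO 5H5 2, and the second without KO 2F4 1, parental 1 or parental 2. F2RL1, the protease-activated receptor that matriptase can cleave, had 2.04 to 9.23 CPM in knockout libraries, against 27.2 and 29.9 CPM in EV 1B9 and 7.13 and 6.51 CPM in parental. F2RL1 was lower in KO 2F4 than in EV 1B9 (-2.84, SE 0.56, adjusted p 0.00647, edgeR). Against parental neither clone passed (-0.77, adjusted p 0.581 for KO 2F4 and 0.27, adjusted p 0.921 for KO 5H5), and EV 1B9 was at 2.06 over parental (adjusted p 0.08). SPINT1 was at 13.6 CPM in knockout and 14.4 CPM in control libraries (-0.09, SE 0.63, adjusted p 0.96), and PRSS8, the gene of the protease prostasin, had 0.162 to 1.09 CPM.

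Over the 6 comparisons of lines, 8 of the 10 genes were tested, since ESRP1 passed the filter there. KO 5H5 against EV 1B9 gave 1 higher (ESRP2) and 1 lower (TRIM29) gene, where edgeR called 4.38% of all genes tested, 2.69% higher and 1.68% lower. KO 2F4 against EV 1B9 gave 1 higher (ESRP2) and 3 lower (EPCAM, CD24 and TRIM29), where 13.0% were called, 6.87% higher and 6.11% lower. KO 5H5 against parental gave 0 calls in edgeR, where 0.740% were called, 0.116% higher and 0.624% lower. There 4 of the 8 had an unadjusted p under 0.05 in edgeR, EPCAM, CD24, TRIM29 and ESRP1. ESRP1 was tested through its parental counts alone, and the share of all genes at that p is not given. DESeq2, which called more genes than edgeR over the whole table, called CD24 higher and TRIM29 lower in this comparison. KO 2F4 against parental gave 2 lower (CD24 and TRIM29), where 1.34% were called, 0.302% higher and 1.04% lower. EV 1B9 against parental gave 1 lower (ESRP2), where 1.34% were called, 0.161% higher and 1.18% lower. KO 2F4 against KO 5H5 gave 1 lower (CD24), where 0.392% were called, 0.161% higher and 0.231% lower. Comparisons that share a control share its libraries, so their values are not independent of each other.

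**Figure D2:**
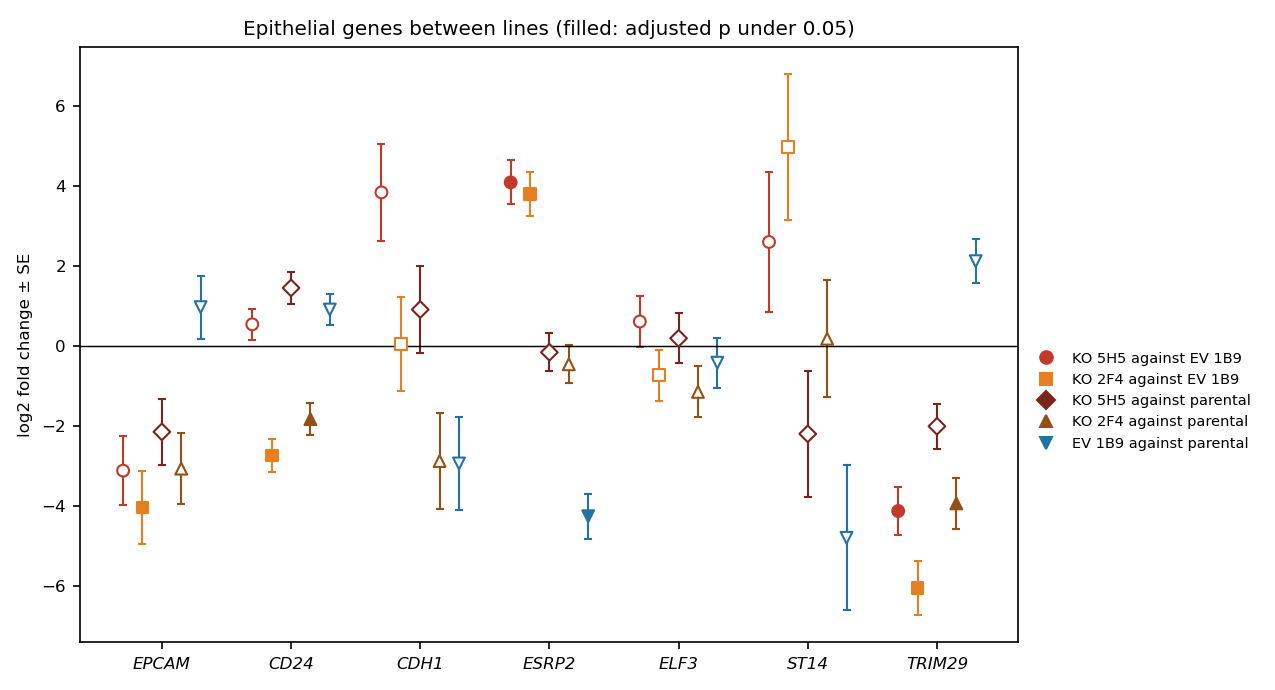
Log2 fold change ± SE of the 7 genes tested in knockout against control, for each clone against EV 1B9, each clone against parental, and EV 1B9 against parental; filled symbols have an adjusted p under 0.05 by edgeR's quasi-likelihood test. EPCAM and TRIM29 are below 0 in all 4 comparisons of a clone with a control, CD24 is below 0 for KO 2F4 and above 0 for KO 5H5, and ESRP2 is far from 0 in the comparisons that hold EV 1B9.

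Surface molecules related to EPCAM and CD24 formed a list of 12 genes, of which 6 were tested in knockout against control. By edgeR 0 were called (4 at an unadjusted p under 0.05), by limma-voom 0 and by DESeq2 2, both lower. Over all genes edgeR called 1.42% and DESeq2 more, and the share at that unadjusted p is not given. The list median was -1.19 beside -0.14 over all genes. The mucin gene MUC1 averaged 3.57 ± 1.91 CPM in knockout and 12 ± 4.93 CPM in control libraries (-1.78, SE 0.57, adjusted p 0.149, edgeR), and the receptor gene ERBB3 averaged 0.973 ± 0.57 CPM in knockout and 2.99 ± 1.16 CPM in control libraries (-1.67, SE 0.65, adjusted p 0.251). CLDN7, a claudin that binds EPCAM, had no count in any library.

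Junction and polarity genes lay on both sides of 0. Of 21 genes 17 were tested in knockout against control, and edgeR called 1, AP1M2, an adaptor subunit of sorting to the basolateral membrane. AP1M2 had 196 and 144 CPM in KO 5H5, 73.8 and 103 in KO 2F4, against 6.13 and 8.06 CPM in EV 1B9 and 33.9 and 14.8 CPM in parental (log2 fold change 3.0, SE 0.54, adjusted p 0.0173, edgeR). The call was lost without KO 5H5 1, EV 1B9 1, EV 1B9 2 or parental 2, with counts summed per line and with parental as the only control. In the list, 5 had an unadjusted p under 0.05, and its median was -0.18. MAL2, a transport protein of polarised cells, averaged 6.6 ± 5.32 CPM in knockout and 41.1 ± 20.2 CPM in control libraries (-2.70, SE 0.63, adjusted p 0.0561, edgeR), and the claudin gene CLDN4 averaged 153 ± 98.2 CPM in knockout and 15.5 ± 16.3 CPM in control libraries (3.32, SE 0.92, adjusted p 0.103). DESeq2 called MAL2 lower and CLDN4 higher, as did the fit with no filter, and GC and length offsets called MAL2 lower. RLE size factors called neither. By line, MAL2 was called lower than EV 1B9 in KO 5H5 (-2.34, adjusted p 0.00762, edgeR) and KO 2F4 (-4.81, adjusted p 6.49e-05, edgeR). It was also called lower than parental in KO 2F4 (-3.66, adjusted p 0.00146, edgeR), while KO 5H5 did not pass there (-1.19, adjusted p 0.399). Against EV 1B9, 6 of 18 tested were higher and 1 lower in KO 5H5, where 4.38% of all genes were called, and 5 were higher and 3 lower in KO 2F4, where 13.0% were called. KRT7 in KO 5H5 and KRT8 in KO 2F4 lost their calls under RLE size factors. KRT8 in KO 2F4 was also lost with no filter, with GC and length offsets and without KO 2F4 1, either EV 1B9 library or parental 2. KRT7 was also lost without EV 1B9 1, KRT18 in KO 5H5 without KO 5H5 1, and the desmosome gene DSP, lower in KO 2F4, without EV 1B9 2. Against parental, 1 was higher in KO 5H5 (0.740% of all genes called), and 1 higher and 2 lower in KO 2F4 (1.34%). EV 1B9 itself had 3 of 18 lower than parental, CLDN3, CLDN4 and KRT18, where 1.34% were called, and KRT18 was lost with the offsets and without parental 1.

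**Figure D3:**
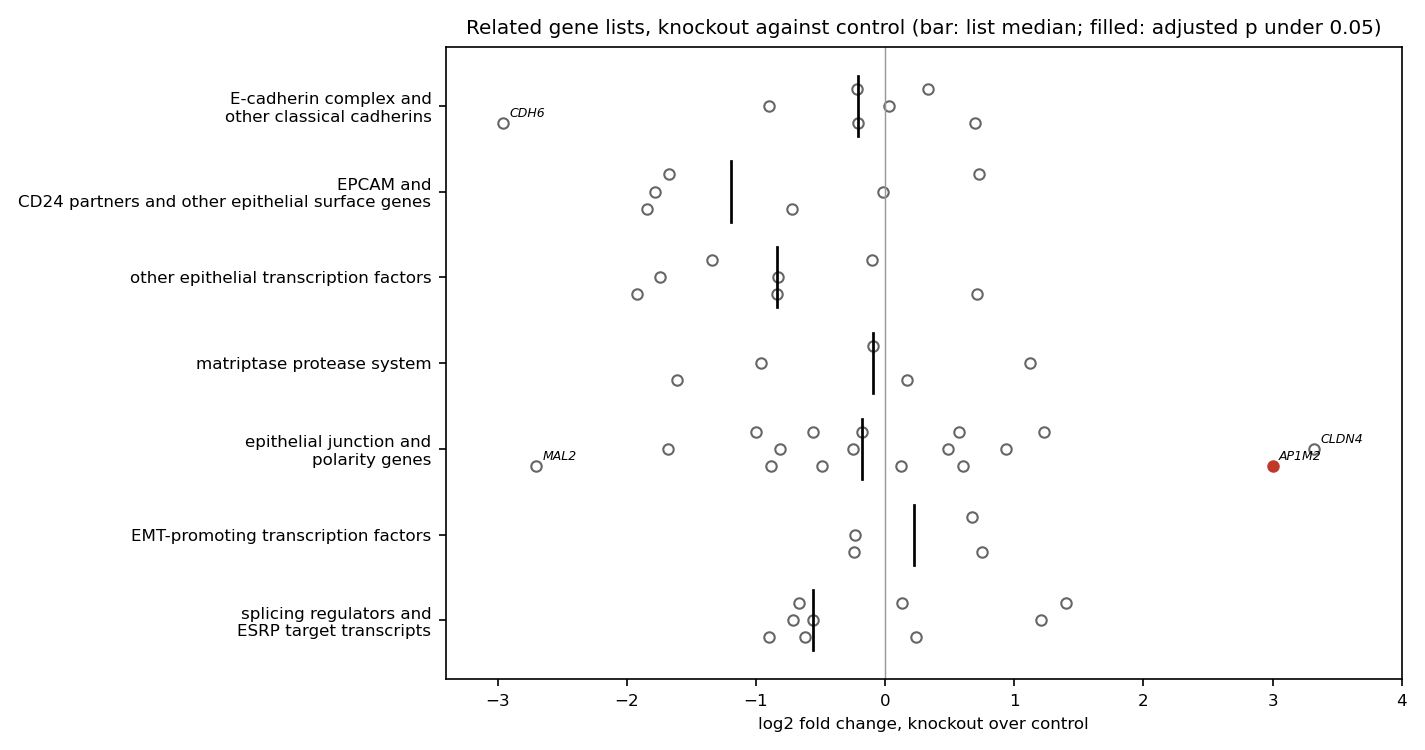
Log2 fold change of knockout over control for each tested gene of the 7 related lists; bars are list medians, filled points have an adjusted p under 0.05 by edgeR, and genes at least 2 from 0 are named. AP1M2, at 3.0, is the filled point, and MAL2 at -2.70 and CDH6 at -2.96 lie farthest below 0.

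Genes whose course over the 8 libraries was most like that of 3 surface genes were found by the root mean square distance of log2 CPM, each gene centred on its own mean, among 12724 protein-coding genes. Nearest to EPCAM were COL8A2 (distance 0.46), a short-chain collagen, DOCK3 (0.47), a guanine nucleotide exchange factor, and CCNA1 (0.48), a cyclin, where the median distance of all genes was 1.77. CCNA1 averaged 5.51 CPM in KO 5H5, 3.31 in KO 2F4, against 53.2 CPM in EV 1B9 and 17.7 CPM in parental, the order seen for EPCAM. Nearest to CDH1 were COL26A1 (0.65), FJX1 (0.70) and RAB17 (0.75), a small GTPase of epithelial transport, with a median of 2.12 over all genes. RAB17 had 1.98 CPM in KO 5H5, 0.294 in KO 2F4, against 0.121 CPM in EV 1B9 and 1.55 CPM in parental. Nearest to CD24 were EGLN1 (0.25), a prolyl hydroxylase of the oxygen response, SRFBP1 (0.38) and RNF144B (0.39), with a median of 1.39. EGLN1 had 3.88 CPM in KO 5H5, 0.463 in KO 2F4, against 3.86 CPM in EV 1B9 and 1.96 CPM in parental. These distances describe 8 libraries of 4 lines, which share their line and scaling. Since the genes were picked by distance over these libraries, a shared order of lines is no separate result.

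**Figure D4:**
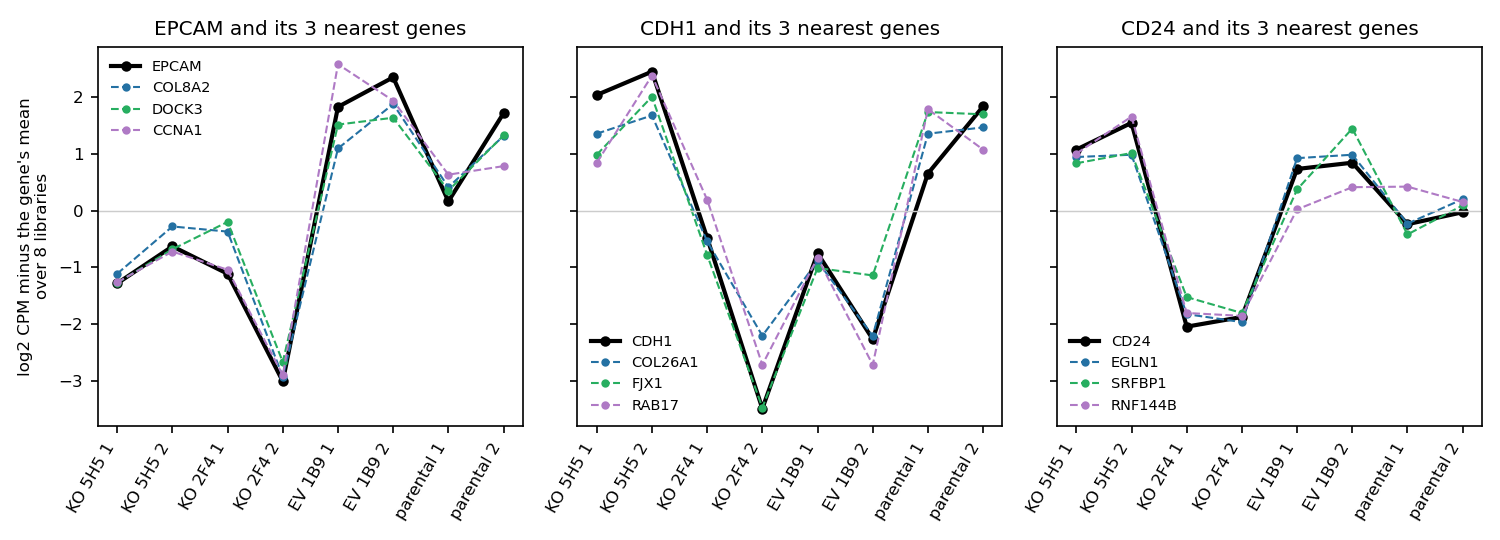
Log2 CPM in each of the 8 libraries, minus the gene's mean over them, for EPCAM, CDH1 and CD24 (black) and the 3 protein-coding genes nearest to each (dashed). EPCAM and its nearest genes are lower in the 4 knockout libraries, CDH1 and its nearest genes are lower in KO 2F4 and EV 1B9, and CD24 and its nearest genes are lower in the 2 libraries of KO 2F4.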

How the data were processed

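RNA of 8 SKOV3 libraries was made with a directional kit and sequenced in pairs, per the labels' protocols. The table the authors deposited holds raw counts for each gene, and by its sheet name and 5 summary lines it comes from HTSeq. Per the submitters' processing notes the tools were HTSeq 0.11.3, STAR 2.7.3a, bcl2fastq 2.18.0.12 and DESeq2 1.26.0, with GRCh38, and no role is stated. For annotation release and strand setting the sources used here give nothing. The summary lines stayed out of library sizes and made up 24.1% to 44.6% of all counted reads. Columns matched samples by title, and unmatched columns numbered 0. Symbols came from a gene name table, or GENCODE 29 where it had none, and 90.5% of identifiers received a symbol. Positions and exon lengths came from GENCODE 29.

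Tests were edgeR 4.0.16 quasi-likelihood tests (R 4.3.3) with TMM, filterByExpr (minimum count 10, minimum total 15) and Benjamini-Hochberg adjustment over all tested genes at 0.05, checked on simulated data. The simulated libraries varied independently, with no line effect beyond the changes set, so that check does not cover the spread between lines. Knockout against control used 8 libraries as 2 classes. The 6 line comparisons were contrasts of a fit with a mean for each line and a shared spread. Their p-values rest on the spread between passages of one culture, not between clones made independently, and class p-values take libraries of a line as independent. Within lines, counts differed by more than sampling noise (chi-square per degree of freedom 91.9 to 191). TMM factors were 0.802 to 1.29. Log2 CPM used a prior count of 2.

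Named genes were the 10, PDE10A, the 3 of each list with the smallest p in knockout against control, and the 3 nearest patterns of EPCAM, CDH1 and CD24. One gene that this rule names is not reported here. Other genes named from the lists were chosen after their values were seen. Members and lists were chosen with earlier results of these data known. The alternatives tried were no filter, RLE size factors, DESeq2 1.42.0, the title suffix as a block, GC and length offsets, each library left out, the class contrast over the line means, counts summed per line, limma-voom (limma 3.58.1) with the line as random block, and either control alone. Leaving out parental 1 with KO 2F4 2 was added after the data were seen. The title suffix UnTx, which made a library number 2, is not explained in the sources used here.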

Additional observations from a re-analysis of the deposited data

Results flagged for a closer look

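GRHL2 in the control libraries was marked because parental 1 stood far from the others. It had 17 counts, or 1.28 CPM, where the other 3 control libraries had 0 to 2 counts, and its gap to the nearest covered 0.958 of the range, above Dixon's critical value at the 95% level for 4 samples. Of 20 groups of 4 considered for such a gap, this was the 1 marked. For normal, independent values chance alone marks about 1 in 20. That rate need not hold here, with counts near 0 and libraries that share a line. Groups at 0 throughout, such as ESRP1 in the knockout libraries, could not be marked.

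CD24 was marked because its difference from the controls was not the same in the 2 knockout clones. It averaged 28.2 ± 2.35 CPM in KO 2F4 and 274 ± 61.9 CPM in KO 5H5 (SD, n = 2 each), a log2 fold change of -3.28 between them (adjusted p 0.0044, edgeR). The fold change lay between -3.54 and -3.04 when each library was left out in turn.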

How the results depend on the processing

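Over 52 gene-by-comparison results and 763 alternative values, the 12 called results kept their call in 158 and lost it in 22, and 0 turned direction. Results not called became called in 58 and turned direction in 37. Genes called over the whole table moved by more than 1.5 times as follows. In knockout against control (192 genes) there were 714 with no filter, 780 by DESeq2, 124 with the replicate block, 534 with GC and length offsets, 1079 with line means, 11 with counts summed per line, 34 by limma-voom with a random line block, 912 with EV 1B9 alone, 48 with parental alone and 330 without parental 1 and KO 2F4 2. In KO 5H5 against EV 1B9 (681) there were 1375 and in KO 2F4 against EV 1B9 (2019) 3428 by DESeq2. In KO 5H5 against parental (115) there were 259 with no filter, 363 by DESeq2 and 199 with the offsets. In KO 2F4 against parental (208) there were 465, 727 and 546 in that order, and 426 with the offsets and the replicate block. In EV 1B9 against parental (209) there were 946 with no filter and 1349 by DESeq2. In KO 2F4 against KO 5H5 (61) there were 272 with no filter, 348 by DESeq2, 35 with the replicate block, 153 with the offsets and 92 with both. With the offsets the calls split into 65 higher and 134 lower in KO 5H5 against parental (18 and 97 without), 285 and 261 in KO 2F4 against parental (47 and 161), and 91 and 204 in EV 1B9 against parental (25 and 184). The causes were not tested.

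With each library left out, the counts ran from 66 to 222, 469 to 1589, 1526 to 4022, 95 to 741, 214 to 1239, 167 to 2209 and 59 to 1199 in the same order; a line left with 1 library lowers the group size of the filter and is assumed to vary like the other lines. Without TMM, levels moved by up to 1.29 times. The replicate numbers did not pair the libraries (correlations -0.256 to 0.204 over 6 pairs of lines). With the replicate block EPCAM in knockout against control had an adjusted p of 0.0766 and CD24 in KO 2F4 against parental 0.0788 (edgeR). The block also ended the calls of SPINT2 in KO 2F4 against KO 5H5 and parental, KRT8 in KO 2F4 against EV 1B9 and KRT18 in EV 1B9 against parental.

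None of the results that turned direction was called. CD24 in knockout against control (0.00) was 0.03 with RLE and by DESeq2, 0.01 with no filter, 0.12 with GC and length offsets, with or without the block, 0.13 summed per line, 0.54 against parental alone, 0.29 without parental 1 and KO 2F4 2, and -0.59 to 0.41 leaving out each library. Against parental alone CDH1 was -0.04, ESRP2 -0.34 and ST14 -0.58, and ST14 ran from -0.21 to 1.88 with libraries left out. ELF3 was 0.11 against EV 1B9 alone and -0.76 to 0.18 with libraries left out. ELF3 in KO 5H5 against EV 1B9 was -0.04 with offsets and block (-0.28 to 1.06 leaving out libraries), and in KO 5H5 against parental it ran from -0.67 to 0.78. ELF3 in EV 1B9 against parental was 0.11 with the offsets and 0.21 with the block too. CDH1 in KO 2F4 against EV 1B9 was -0.13 with no filter, -0.02 with the block and -5.97 to 1.40 with libraries left out, where the low end is a fit against a library at 0. ESRP2 in KO 5H5 against parental was 0.02 with the offsets, with or without the block, and in KO 2F4 against KO 5H5 it ran from -0.79 to 0.03. ST14 in KO 2F4 against parental ran from -0.39 to 1.17.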
